A study of Mus musculus with 11 samples.

Results

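The Rab GTPases are the members of 1 gene family, taken here as every gene on the array whose symbol is Rab followed by a number and at most 1 letter. The array named 65 genes that begin with Rab and a number. Of these 56 were members, and 9 were left out because they name partners of Rab proteins (Rab3gap1, Rab3gap2, Rab3il1, Rab3ip, Rab5if and Rab11fip1 to Rab11fip4, which are not GTPases themselves). The 56 stood among 19505 named genes, and each was read by 1 transcript cluster, a set of probes summarised as 1 value. All mice were female C57BL/6J animals bought at 6 weeks of age, and all received 5 injections within 10 days. Controls (n = 4) were given PBS, with lavage at day 10. Acute mice (n = 3), also sampled at day 10, were given CpG 1826, an oligonucleotide that activates the DNA sensor Tlr9 and is used to model macrophage activation syndrome. The resolution group (n = 4) received the same CpG course and was lavaged on day 30, so no PBS group of day 30 was analysed here and the effects of the course and of the later day cannot be told apart. Alveolar macrophages, the phagocytes of the air spaces, were obtained from lavage fluid by adherence, and each replicate was 1 array.

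Rab proteins are small GTPases that mark the membranes between which vesicles move. Exchange factors load them with GTP on their membrane, the loaded form binds effectors that tether, move or fuse vesicles, and GTPase-activating proteins switch them off. In macrophages they are known for carrying ingested particles from the early phagosome to the lysosome, for returning receptors to the surface and for secretion.

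The arrays were alike in brightness, with a median intensity of 51.4 to 57.0 and correlations across genes of 0.988 to 0.995 within groups, where genes are not independent replicates. All values below are log2(intensity + 1). The 12 measured alveolar macrophage markers, among them Siglecf, Marco, Pparg and Chil3, were above background on all 11 arrays, with a mean per array of 15.17 to 15.25 in acute, 15.26 to 15.38 in control and 15.09 to 15.19 in resolution. Single markers moved apart between control and resolution means. Fabp4 (16.68 and 15.49), Ctsk (15.62 and 14.48) and Fabp5 (15.75 and 14.95) were lower, and Pparg (13.03 and 13.78) and Krt79 (13.69 and 14.31) higher. At an adjusted p under 0.05, 2 of the 12 were higher and 3 lower in resolution than in control, where 18.6% of all genes passed. The mean of 17 measured lung epithelium markers was 7.70 to 8.04 in control, 8.59 to 9.03 in acute and 7.36 to 7.59 in resolution arrays. Of the 17, 8 were above background on all 11 arrays (Scgb1a1, Scgb3a1, Scgb3a2, Bpifa1, Sftpc, Epcam, Cdh1 and Krt19), 6 on some and 3 on none (Sftpb, Krt18 and Aqp5). The club cell gene Scgb1a1 had means of 8.93 in control, 11.16 in acute and 7.49 in resolution arrays, whereas Krt19 (12.01, 11.78 and 13.79), Cdh1 (13.05, 12.97 and 13.42) and Epcam (7.73, 7.50 and 8.01) were lowest in acute and highest in resolution arrays. Of 11 measured T and NK cell markers 8 (Cd3e, Cd3g, Nkg7, Klrb1c, Ncr1, Gzma, Gzmb and Prf1) and of 5 measured B and plasma cell markers all 5 were not above background on any array. Cd2 was above it on all 11 arrays, and Cd3d and Il2rb on 3 each. The means in control, acute and resolution were 5.74, 6.54 and 5.02 for Cd3d and 5.01, 7.04 and 4.46 for Il2rb. The mean per array of 8 measured neutrophil markers was 6.08 to 7.30 in control, 6.29 to 6.32 in acute and 6.00 to 6.22 in resolution. S100a9 (7.46, 6.59 and 6.36) was above background on 8 arrays. The neutrophil markers S100a8 (9.86, 9.53 and 8.56), Cxcr2 (8.06, 7.98 and 6.98) and Csf3r (9.72, 9.68 and 10.40) were above background on all 11 arrays. So were the dendritic cell markers Clec9a and Ccr7. Of the monocyte and interstitial macrophage list 5 of 11 were not above background on any array. Its mean per array was 5.07 to 5.56 in control, 5.78 to 5.96 in acute and 5.47 to 5.57 in resolution. C1qa was above background on all 11 arrays, with means of 7.73, 9.61 and 9.24 in control, acute and resolution. C1qb (5.58, 6.44 and 6.18) was above it on 5 arrays, and Itgam (6.76, 6.55 and 6.23) on 8. The mean of Ccr2, above background on 3 arrays, was highest in resolution. Of 7 tested markers of this list, 1 was higher in acute and 2 in resolution than in control at an adjusted p under 0.05, and 0 were lower. The 1 measured red cell marker ran from 5.72 to 6.70 in control, from 6.99 to 15.15 in acute and from 5.54 to 7.25 in resolution arrays. The part of other cells in the results below was not tested.

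Of the 56 Rab genes 33 were above background on all 11 arrays, 7 on some (Rab3a, Rab9b, Rab12, Rab13, Rab17, Rab27a and Rab34) and 16 on none. Background was the 90th percentile of 23 probe sets that match no mouse sequence, which lay between 6.12 and 6.24. The 16 dim genes included Rab25 and the neuronal and secretory forms Rab3b, Rab3c, Rab26 and Rab27b, and also Rab4a, a Rab of fast recycling, and Rab38, a Rab of melanosomes and other lysosome-related organelles. A filter on dim genes passed 42 of the 56 members and 12146 genes in all, and the 14 members that did not pass had single-array values between 3.45 and 5.77. Rab25 and Rab39b passed it without exceeding background. Levels of different genes come from different probes and are not compared with each other here.

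At the end of the CpG course few genes passed the test, and no Rab gene was among them. Acute versus control asks what differed on day 10, and limma called 0 of the 42 tested members, where it called 0.239% of all genes tested, 0.189% higher and 0.0494% lower. At so low a share the lack of a call is not read as a trait of the Rab genes. At an unadjusted p under 0.05 there were 3 members, Rab20, Rab27a and Rab32, against 9.06% of all genes. Rab32, which delivers enzymes and antimicrobial cargo to lysosome-related organelles and to pathogen-containing vacuoles, measured 14.16 to 14.25 in controls and 14.40, 14.46 and 14.60 in acute arrays. These ranges did not overlap, and the difference of 0.28 ± 0.10 (SE) had an adjusted p of 0.443. Rab20, a Rab of maturing phagosomes, differed by 0.37 ± 0.17 (SE, adjusted p = 0.546), and Rab27a by 0.53 ± 0.23 (SE, adjusted p = 0.503), with acute replicate 3 at 7.09 against 6.25 and 5.93. Control and acute arrays did not overlap for 4 of the 42 members (Rab8a, Rab9b, Rab29 and Rab32) and for 10.1% of all genes. The median difference of the members was 0.05, and that of all genes tested was -0.00.

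On day 30 Rab genes differed from control in both directions. Resolution versus control asks what differed in the mice 30 days after the start, and 12 of the 42 tested members passed, 6 higher and 6 lower (28.6%), where 18.6% of all genes passed, 9.6% higher and 9.0% lower. Higher were Rab27a, Rab24, Rab3a, Rab29, Rab3d and Rab9b, and lower were Rab20, Rab7b, Rab10, Rab21, Rab18 and Rab8a. The median difference of the tested members was -0.08, against 0.00 over all genes tested, and the median size of the difference was 0.28 for members and 0.22 for all genes. Arrays of the 2 groups did not overlap for 16 of the 42 members (38.1%) and for 22.7% of all genes, and 18 members had an unadjusted p under 0.05, as did 31.3% of all genes. In RNA from whole cell samples such as these, fewer cells of a type and less RNA per cell cannot be told apart. The calls of 9 of the 12 genes held without each array in turn, and those of Rab9b, Rab18 and Rab21 did not.

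**Figure D1:**
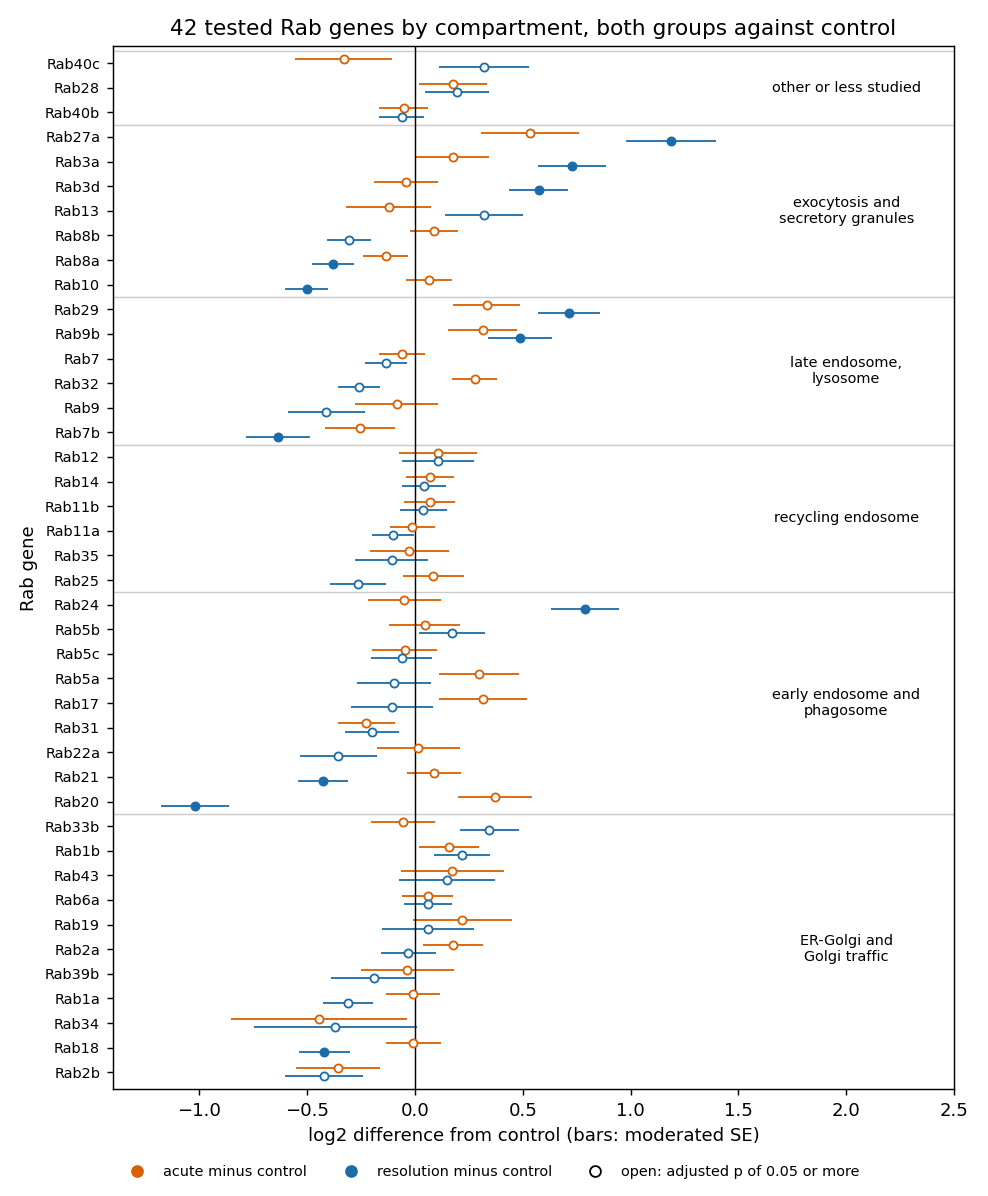
Log2 difference from control (x axis, bars give the moderated SE) for each of the 42 tested Rab genes, grouped by the 1 compartment under which each protein is listed here, with acute minus control in orange and resolution minus control in blue; filled points passed an adjusted p of 0.05. No orange point is filled, and the 12 filled blue points run from -1.02 for Rab20 to 1.19 for Rab27a, with none among the recycling Rabs.

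Resolution versus acute compares the same 4 resolution arrays with the 3 acute arrays. It called 9 of the 42 members (21.4%), 3 higher and 6 lower, where 14.4% of all genes passed, 7.76% higher and 6.69% lower. Arrays of these 2 groups did not overlap for 15 of the 42 members and for 26.3% of all genes, and 18 members had an unadjusted p under 0.05, as did 28.8% of all genes. Since both comparisons use the resolution arrays, their values are given side by side. Rab20, Rab10, Rab21 and Rab18 passed as lower and Rab24, Rab3d and Rab3a as higher in both, Rab27a, Rab29, Rab9b, Rab7b and Rab8a passed against control alone, and Rab32 and Rab8b against acute alone. With arrays scaled to a common median, or with quantile normalization, 7 members passed, 1 higher and 6 lower. Without acute replicate 2 the count was 4 and without acute replicate 3 it was 5, and the calls of Rab10, Rab20, Rab24 and Rab32 held without each array in turn.

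**Figure D2:**
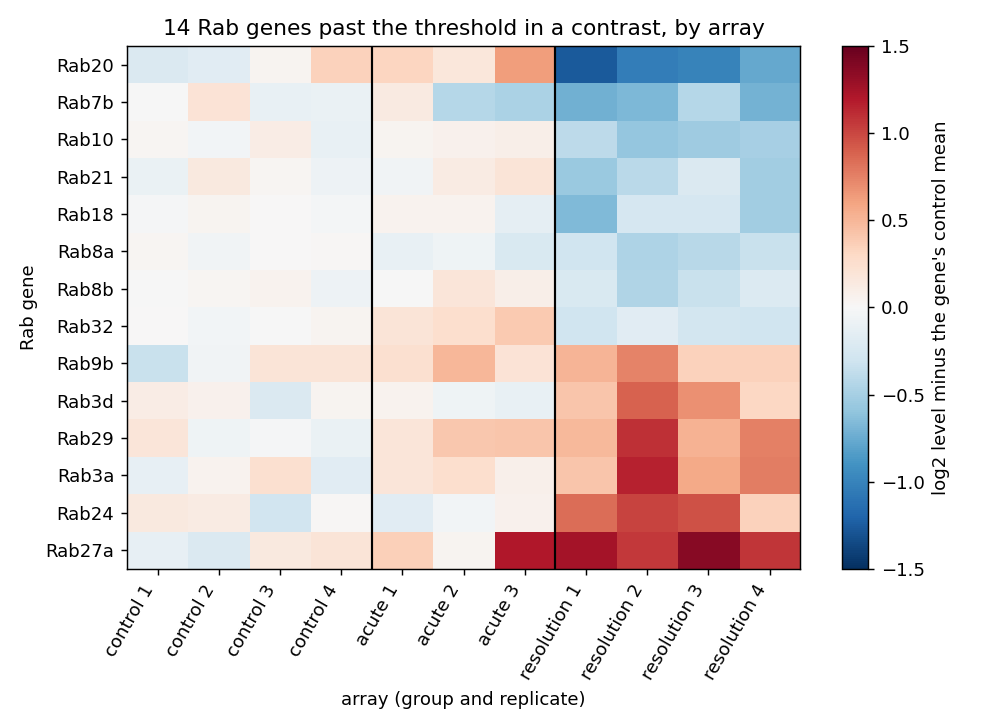
Each row is 1 of the 14 Rab genes past the threshold in a contrast and each column 1 array, and the colour gives the log2 level minus the gene's control mean. The 4 resolution columns are blue in the upper 8 rows, from Rab20 to Rab32, and red in the lower 6, and the Rab27a value of acute replicate 3 lies with the resolution arrays rather than with acute replicates 1 and 2.

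The Rabs listed here under early endosomes and phagosomes held the deepest fall and a rise. All 9 members of this group were tested, and on day 30 against control 2 fell, 1 rose and 6 did not pass, where 18.6% of all genes passed. Rab20, which takes part in the maturation of phagosomes and is known as an interferon-gamma responsive gene of macrophages, measured 8.48, 8.53, 8.74 and 9.04 in controls, 9.02, 8.87 and 9.32 in acute arrays and 7.43, 7.67, 7.69 and 7.93 in resolution arrays. Every resolution array lay below every other array. Rab20 fell 2.02-fold from control, a difference of -1.02 ± 0.16 (SE, adjusted p = 0.000724), and 2.62-fold from acute (adjusted p = 0.000204). Rab21, an early endosomal Rab that carries integrins, measured 10.66, 10.90, 10.79 and 10.69 in controls, 10.71, 10.89 and 10.95 in acute and 10.21, 10.36, 10.54 and 10.23 in resolution arrays, again without overlap. Its fall from control of 1.34-fold had an adjusted p of 0.0227, which rose to between 0.0525 and 0.0652 when control replicate 2 or 3, or resolution replicate 1 or 4, was left out, and its fall from acute of 1.43-fold (adjusted p = 0.0159) ended without acute replicates 2 (0.0568) or 3 (0.0676).

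Rab24, an atypical Rab linked to the clearing of autophagosomes and listed here with this group, went the other way. It measured 10.95, 10.92, 10.51 and 10.81 in controls, 10.63, 10.76 and 10.86 in acute and 11.64, 11.81, 11.75 and 11.14 in resolution arrays, and resolution replicate 4 was the lowest of its group but above all other arrays. Rab24 rose 1.73-fold from control, by 0.79 ± 0.16 (SE, adjusted p = 0.00392), and 1.79-fold from acute (adjusted p = 0.00577). Rab5a, Rab5b and Rab5c, which define the early endosome and bind the same effectors, differed from control by -0.09, 0.17 and -0.06 without passing. Rab22a, Rab31 and Rab17 also did not pass, at -0.35, -0.20 and -0.11. Rab17 is known from epithelia, and its means of 6.31 in control, 6.62 in acute and 6.20 in resolution arrays were highest in acute and lowest in resolution, as was the mean of the epithelial list but not Krt19, Cdh1 or Epcam. The part of epithelial RNA in these values was not tested.

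The 250 bases upstream of the annotated start are shown for 3 of the 4 genes that fell against both groups (no window was matched for Rab18), and for Rab24, which rose against both. They come from RefSeq (GRCm38.p6), are written 5′ to 3′ on the strand of the gene, and capitals mark the E-box CACGTG or the antioxidant response core TGANNNNGC on either strand.
Rab20 (chr8:11478641-11478890, minus strand): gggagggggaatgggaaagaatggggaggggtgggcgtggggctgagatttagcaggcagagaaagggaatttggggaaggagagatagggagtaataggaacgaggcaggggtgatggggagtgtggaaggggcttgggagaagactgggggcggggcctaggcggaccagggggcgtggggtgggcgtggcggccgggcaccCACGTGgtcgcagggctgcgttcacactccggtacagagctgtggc
Rab21 (chr10:115315592-115315841, minus strand): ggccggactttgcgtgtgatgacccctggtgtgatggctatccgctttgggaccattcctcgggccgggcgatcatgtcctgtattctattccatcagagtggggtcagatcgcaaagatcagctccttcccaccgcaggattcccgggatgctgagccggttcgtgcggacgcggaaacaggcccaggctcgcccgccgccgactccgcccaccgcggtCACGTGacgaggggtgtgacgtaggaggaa
Rab10 (chr12:3309970-3310219, minus strand): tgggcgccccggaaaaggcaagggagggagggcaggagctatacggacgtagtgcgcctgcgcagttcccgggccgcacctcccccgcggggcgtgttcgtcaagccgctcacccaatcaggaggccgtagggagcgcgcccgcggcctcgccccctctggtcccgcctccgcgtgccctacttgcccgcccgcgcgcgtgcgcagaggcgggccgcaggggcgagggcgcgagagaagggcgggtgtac
Rab24 (chr13:55321981-55322230, minus strand): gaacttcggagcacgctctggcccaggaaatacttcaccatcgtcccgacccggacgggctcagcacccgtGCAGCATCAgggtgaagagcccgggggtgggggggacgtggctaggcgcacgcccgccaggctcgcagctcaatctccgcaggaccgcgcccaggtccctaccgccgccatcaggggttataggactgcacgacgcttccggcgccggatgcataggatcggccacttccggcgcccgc

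CACGTG is the core of the element read by TFEB and MITF, factors of lysosome genes. It began 46 bases before the start of Rab20 and 30 bases before that of Rab21, was not found in the windows of Rab10 and Rab24, and stood in 6.02% of all 32851 windows of this length and in a window of 6.86% of all 27025 genes. RefSeq windows were matched for 47 of the 56 members, 5 of which held the E-box, and for 12 of the 14 members past the threshold, of which Rab20, Rab21 and Rab27a held it. The antioxidant response core, searched on both strands, was found in Rab24 and in Rab3d, Rab8a, Rab8b and Rab32 among these 12, and in 38.7% of all genes. The cAMP response element TGACGTCA (1.77% of all genes) and the AP-1 site TGANTCA (7.82%) were in none of the 12. The GC box GGGCGG was in 35 of the 47 members with a window and in 35.4% of all genes, and the CCAAT box in 23 of the 47 and in 37.5%. Such matches describe letters and are not evidence of binding.

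Among the Rabs of late endosomes, lysosomes and related organelles 6 of 7 were tested, and against control 2 rose, 1 fell and 3 did not pass. Over all genes 18.6% passed in this comparison. Rab29, which recruits the kinase Lrrk2 to the Golgi and to stressed lysosomes, measured 12.36, 12.12, 12.17 and 12.08 in controls, 12.36, 12.59 and 12.59 in acute and 12.67, 13.27, 12.71 and 12.94 in resolution arrays. The acute arrays lay between the other groups, with no overlap with the resolution arrays. Rab29 rose 1.64-fold from control, by 0.71 ± 0.14 (SE, adjusted p = 0.00401), and its difference from acute was 0.38 ± 0.15 (SE, adjusted p = 0.124). Rab7b, which is known to carry receptors such as Tlr4 and Tlr9 to lysosomes for degradation, measured 11.89, 12.10, 11.78 and 11.80 in controls and 11.17, 11.21, 11.46 and 11.18 in resolution arrays. Acute replicate 1 at 12.03 resembled the controls, while replicates 2 and 3 at 11.47 and 11.41 lay near the resolution arrays. Rab7b fell 1.55-fold from control (adjusted p = 0.0103), and its difference from acute was -0.38 ± 0.16 (SE, adjusted p = 0.140).

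Rab32 measured 14.22, 14.16, 14.20 and 14.25 in controls, 14.40, 14.46 and 14.60 in acute and 13.91, 14.04, 13.93 and 13.91 in resolution arrays. The 3 groups did not overlap, with acute on top and resolution at the bottom. Rab32 fell 1.45-fold from acute (adjusted p = 0.00472), and against control its difference was -0.26 ± 0.10 (SE, adjusted p = 0.0857), which passed with a trended prior (0.0195). Rab9b, a relative of the late endosomal Rab9, was dim, with 5.40, 5.68, 5.93 and 5.94 in controls, 5.98, 6.24 and 5.94 in acute and 6.25, 6.49, 6.08 and 6.09 in resolution arrays. It exceeded background on 0 of 4 control arrays and on 2 of 4 resolution arrays, and was higher than control by 0.49 ± 0.15 (SE, adjusted p = 0.0372), at least 1.05-fold. That call was lost on leaving out control replicate 1 (0.103) or 2 (0.0823), on leaving out resolution replicate 1 (0.0743) or 2 (0.0927), and with scaling to a common median (0.0706), quantile normalization (0.0736), no filter (0.0518), only the arrays of the groups compared (0.0553) or the replicate block (0.0566). Rab7, the main Rab of late endosomes and lysosomes, had a control mean of 17.01 ± 0.08 (SD, n = 4) and a resolution mean of 16.88 ± 0.06 (SD, n = 4) without passing (adjusted p = 0.393).

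Rabs of exocytosis and secretory granules changed in both directions. Of 12 members 7 were tested, and against control 3 rose (Rab27a, Rab3a and Rab3d), 2 fell (Rab10 and Rab8a) and 2 did not pass (Rab8b and Rab13). Over all genes 18.6% passed in this comparison. Rab27a, which docks secretory granules and is lost in Griscelli syndrome, a disease with haemophagocytic attacks, measured 5.77, 5.67, 6.03 and 6.08 in controls, all below background, and 7.13, 6.95, 7.26 and 6.96 in resolution arrays, all above it. Acute replicates 1 and 2 stood at 6.25 and 5.93 and replicate 3 at 7.09, within the range of the resolution arrays. Rab27a rose at least 1.88-fold from control, a bound against background, and by 1.19 ± 0.21 (SE, adjusted p = 0.00179) as measured. Its difference from acute was 0.65 ± 0.23 (SE, adjusted p = 0.0741), and 0.99 (adjusted p = 0.0041) without acute replicate 3. Rab27a is also active in cytotoxic lymphocytes, whose T and NK marker list had a mean per array of 5.37 to 5.43 in resolution, 5.87 to 6.20 in acute and 5.40 to 5.77 in control. Of that list 8 of 11 markers, Gzma, Gzmb and Prf1 among them, were not above background on any array. The part of lymphocyte RNA in the Rab27a values was not tested.

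**Figure D3:**
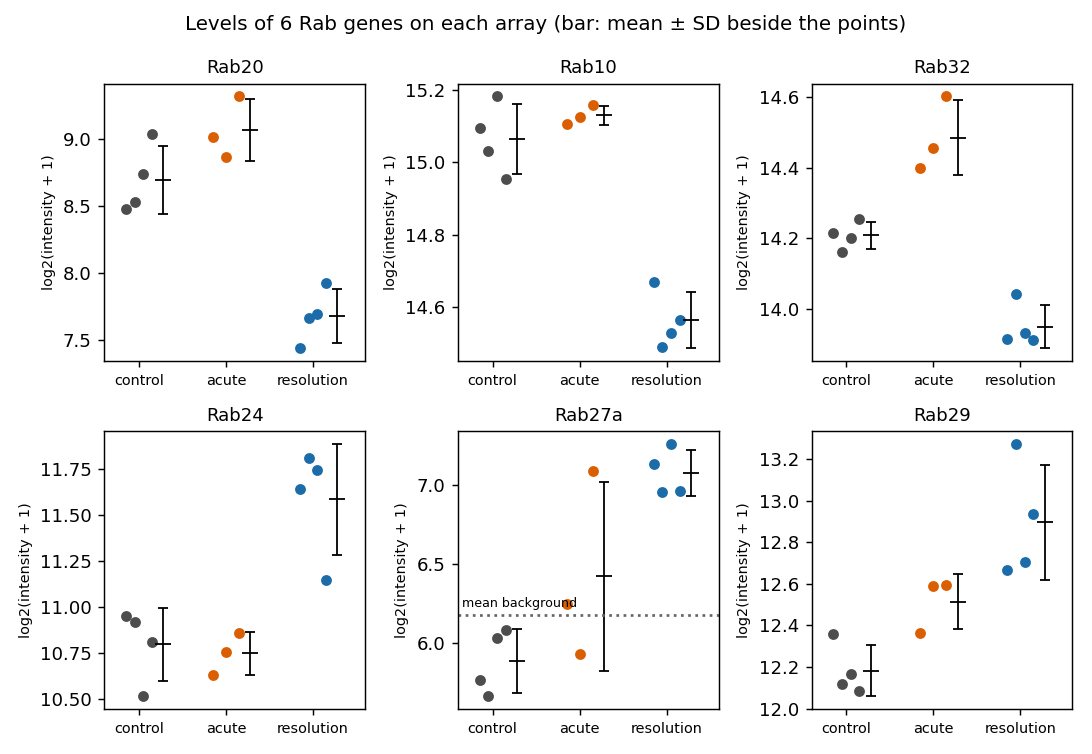
Log2(intensity + 1) (y axis) of 6 Rab genes on every array, with the group mean ± SD beside the points and the mean array background as a dotted line for Rab27a; the y axes do not start at 0. Resolution arrays lie below all others for Rab20, Rab10 and Rab32 and above all others for Rab24 and Rab29, and for Rab27a acute replicate 3 (7.09) lies among them.

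Rab3a, best known from synaptic vesicles, measured 5.89, 6.07, 6.26 and 5.85 in controls, 6.21, 6.27 and 6.10 in acute and 6.44, 7.17, 6.59 and 6.78 in resolution arrays, and exceeded background on 1 control array, 2 acute arrays and all resolution arrays. It rose from control, with a measured difference of 0.73 ± 0.16 (SE, adjusted p = 0.00656), and no fold is given because 3 of the 4 control arrays were not above background. Against acute its adjusted p was 0.0476, and the call was lost on leaving out any of 8 of the 11 arrays, namely control 1 and 2, all acute arrays and resolution 2, 3 and 4 (0.0602 to 0.138), and with either other scaling (0.0981 and 0.146). It was also lost with no filter (0.0636), only the arrays of the groups compared (0.0712) and the replicate block (0.0597). The same held for array weights (0.0513), a trended prior (0.0569) and leaving out control replicates 3 and 4 together (0.0527). Rab3d, a Rab of secretory granules in haematopoietic and exocrine cells, measured 9.57, 9.52, 9.24 and 9.49 in controls, 9.51, 9.40 and 9.34 in acute and 9.88, 10.34, 10.14 and 9.77 in resolution arrays. The resolution arrays lay above all others. Rab3d rose 1.49-fold from control (adjusted p = 0.0117) and 1.53-fold from acute (adjusted p = 0.0156), the latter no longer without acute replicates 2 (0.0515) or 3 (0.0591), with scaling to a common median (0.0509) or with quantile normalization (0.0712).

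Rab10, which in macrophages is known to bring Tlr4 to the plasma membrane, was tight within groups. It measured 15.09, 15.03, 15.18 and 14.95 in controls, 15.11, 15.12 and 15.16 in acute and 14.67, 14.49, 14.53 and 14.57 in resolution arrays, so that the resolution arrays lay below all others. Rab10 fell 1.42-fold from control, a difference of -0.50 ± 0.10 (SE, adjusted p = 0.0037), and 1.48-fold from acute (adjusted p = 0.00382). Rab8a, a close relative that acts in membrane ruffles and tubules, measured 13.86, 13.78, 13.83 and 13.85 in controls, 13.72, 13.76 and 13.60 in acute and 13.53, 13.37, 13.41 and 13.49 in resolution arrays. It fell 1.30-fold from control (adjusted p = 0.0153), and the difference from acute of -0.24 ± 0.10 (SE) had an adjusted p of 0.141. Rab8b measured 15.02, 15.06, 15.09 and 14.96 in controls, 15.02, 15.21 and 15.12 in acute and 14.80, 14.58, 14.70 and 14.83 in resolution arrays, the lowest in each case. It fell 1.31-fold from acute (adjusted p = 0.0333), a call that ended on leaving out any single acute replicate or resolution replicates 2 or 3 (0.0542 to 0.115). That call also ended with only the arrays of the groups compared (0.0722) or the replicate block (0.0845). The difference of Rab8b from control of -0.30 ± 0.10 (SE) had an adjusted p of 0.0581. It passed with scaling to a common median (0.0385), a pseudocount of 16 (0.0421), a filter at the 60th percentile (0.0343), array weights (0.0466) or a trended prior (0.00716).

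Rabs of the ER and Golgi had 1 call against control. Of 15 members 11 were tested, and against control 1 fell and 10 did not pass, where 18.6% of all genes passed. Rab18, which acts at the ER and on lipid droplets, measured 11.26, 11.32, 11.28 and 11.24 in controls, 11.33, 11.33 and 11.15 in acute and 10.61, 11.02, 11.03 and 10.76 in resolution arrays, below all others. It fell 1.34-fold from control (adjusted p = 0.0261) and 1.33-fold from acute (adjusted p = 0.0476). The first call was lost on leaving out control 1, 2 or 3, or resolution 1 or 4 (0.0536 to 0.0735), and the second without 9 of the 11 arrays, with resolution replicates 2 and 3 as the exceptions (0.0554 to 0.148). Rab1a, the Rab of ER to Golgi transport, had non-overlapping arrays in control and resolution and a difference of -0.31 ± 0.11 (SE, adjusted p = 0.0808), while its relative Rab1b was at 0.22 ± 0.13 (SE, adjusted p = 0.272). The other members not called lay between -0.42 for Rab2b and 0.34 for Rab33b, and Rab6a, the Rab of the trans-Golgi, was at 0.06 ± 0.11 (SE).

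Rabs of recycling endosomes had no call in any comparison. Of 8 members 6 were tested, and their differences from control on day 30 ran from -0.26 for Rab25 to 0.11 for Rab12. These 2 genes were dim, with Rab12 above background on 1 resolution array alone. Rab11a, Rab11b, Rab14 and Rab35, above background on all 11 arrays, differed by -0.10, 0.04, 0.04 and -0.11. Over all genes 0.239% passed in acute versus control, 18.6% in resolution versus control and 14.4% in resolution versus acute. Rab11a and Rab11b, which direct slow recycling to the surface, had control means of 16.09 ± 0.07 and 14.25 ± 0.11 (SD, n = 4) and resolution means of 15.99 ± 0.08 and 14.29 ± 0.12 (SD, n = 4). Rab14, which links endosomes and the Golgi, was at 14.63 ± 0.09 and 14.67 ± 0.10 (SD, n = 4). The smallest p in this group belonged to the epithelial Rab25 against acute (adjusted p = 0.126), which was not above background on any array. Of the 5 members with other or less studied roles 3 were tested and none passed. With so few members tested, the lack of a call is not read as a trait of either group. Rab40c, which recruits a ubiquitin ligase, was 0.65 ± 0.23 (SE) above acute (adjusted p = 0.0746). It passed with the replicate block (0.0233), with array weights (0.0455), and without control replicate 4 (0.0444), resolution replicate 4 (0.0474) or control replicates 3 and 4 together (0.0412).

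Close relatives in the family gave different values side by side. Against control Rab7b differed by -0.63 while Rab7 differed by -0.13, Rab27a rose by 1.19 while Rab27b was below background throughout, Rab3a and Rab3d rose by 0.73 and 0.57 while Rab3b and Rab3c were below background throughout, and Rab9b differed by 0.49 and Rab9 by -0.41. These are differences as measured, and 4 of 4 control arrays for Rab27a and Rab9b and 3 of 4 for Rab3a were not above background, so their size is not fixed by the data. Rab7 (adjusted p = 0.393) and Rab9 (adjusted p = 0.135) did not pass against control, and the differences between relatives were not tested. Near-identical sequences can share probes, and the positions that the probes read were not analysed here.

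RNA levels of genes for proteins that load, switch off and bind Rabs also differed in both directions on day 30. Of 123 such genes listed 112 were on the array and 99 were tested. In acute versus control limma called 0 of 99 against 0.239% of all genes, with 15 at an unadjusted p under 0.05 against 9.06% of all genes. At so low a share of calls, having none is not read as a trait of these genes. In resolution versus control 11 rose, 20 fell and 68 did not pass, which is 31.3% called against 18.6% of all genes, and the median difference was -0.03. In resolution versus acute 9 rose and 17 fell (26.3% called against 14.4% of all genes), and 15 passed without acute replicate 1 and 17 without acute replicate 3.

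Of 31 tested GTPase-activating proteins 3 rose and 5 fell against control (25.8% called), where 18.6% of all genes passed. Tbc1d10a, which acts on Rab27a and Rab35, measured 8.60, 9.42, 8.61 and 8.77 in controls, 8.92, 8.86 and 9.27 in acute and 6.84, 6.96, 7.41 and 7.21 in resolution arrays, well below the rest. It fell 3.36-fold, a difference of -1.75 ± 0.19 (SE, adjusted p = 6.2e-05). Tbc1d2, which acts on Rab7, fell 2.59-fold, and Evi5 and Tbc1d9b rose 1.91-fold and 1.87-fold. Of 21 tested exchange factors 2 rose and 3 fell against control (23.8% called). Dennd4a, which loads Rab10, measured 13.01, 12.77, 13.07 and 12.60 in controls and 14.28, 13.95, 14.31 and 14.47 in resolution arrays. It rose 2.63-fold, whereas Rab10 itself fell. Ric1, which loads Rab6, fell 1.99-fold and Rab3il1, an exchange factor for Rab3a and Rab8, 1.78-fold. Madd, an exchange factor for Rab3 and Rab27, fell 1.77-fold from acute (adjusted p = 0.0484), a call that ended without 8 of the 11 arrays (0.0509 to 0.140), and held without control replicate 3 and resolution replicates 3 or 4. It also ended with no filter (0.0625), the replicate block (0.102) or array weights (0.0569).

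Of 38 tested effectors 4 rose and 12 fell against control (42.1% called), where 18.6% of all genes passed. This list too was chosen with earlier results of these data known, and its share was not tested against that of all genes. Plekhm1, which couples Rab7 to fusion with lysosomes, measured 13.91 to 14.13 in controls, 13.77, 13.29 and 13.54 in acute and 12.77, 12.23, 12.69 and 12.79 in resolution arrays. It fell 2.67-fold. Rabep1, the Rab5 effector rabaptin, and Rilpl2, which binds Rabs phosphorylated by Lrrk2, each fell 2.04-fold. Ehbp1, which links Rab8 and Rab10 to actin, rose 2.44-fold. It measured 9.47, 9.39, 8.76 and 9.19 in controls and 10.70, 9.55, 10.31 and 11.40 in resolution arrays. The Ehbp1 call against acute was lost on leaving out any single acute replicate, or resolution replicate 1 or 4 (adjusted p = 0.051 to 0.101). That of Rabep1 against acute was lost without any of 7 of the 11 arrays. Rilp, the Rab7 effector that recruits dynein, was at 0.20 ± 0.16 (SE, adjusted p = 0.445). Of 6 tested genes for the lipid anchoring and recycling of Rab proteins 1 rose against control (16.7%), near the share of all genes. Rabggta, a subunit of the enzyme that attaches the lipid, rose 1.48-fold (adjusted p = 0.0229). It did not pass when control 1 (0.0504), control 4 (0.0596), resolution 3 (0.0655) or resolution 4 (0.0545) was left out. Nor did it pass with the replicate block (0.0536) or quantile normalization (0.0602). Gdi2, which extracts Rabs from membranes, was at -0.12 ± 0.12 (SE). Lrrk2, the kinase that phosphorylates Rab8a, Rab10 and Rab29 among others, measured 10.60, 10.63, 10.58 and 11.07 in controls and 11.48, 11.04, 11.39 and 11.52 in resolution arrays. It rose 1.56-fold (adjusted p = 0.0141), with control replicate 4 above resolution replicate 2.

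**Figure D4:**
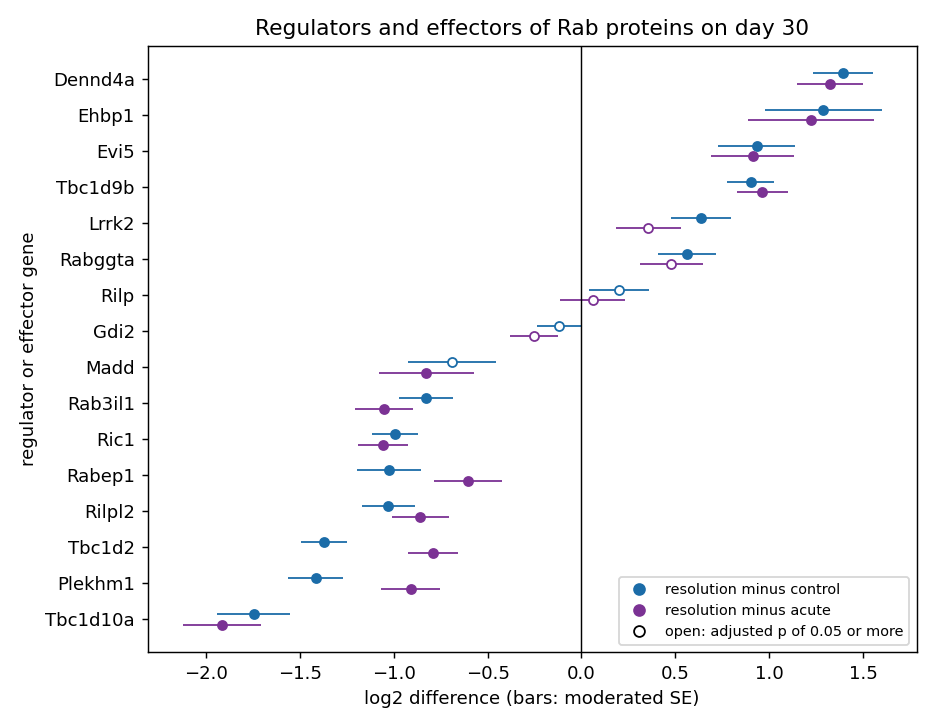
Log2 difference (x axis, bars give the moderated SE) of 16 regulators and effectors of Rab proteins between resolution and control arrays (blue) and between resolution and acute arrays (purple); filled points passed an adjusted p of 0.05, and genes are ordered by the blue value. The blue values run from -1.75 for Tbc1d10a to 1.39 for Dennd4a, and the purple values of these 2 genes are -1.91 and 1.32.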

How the data were processed

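Each of the 11 macrophage samples (4 control, 3 acute, 4 resolution) gave 1 Affymetrix array. The deposited intensities are linear values made by the authors with Affymetrix Expression Console per the submitters' processing notes, with the version, summary algorithm and genome build not given in the sources used here. They were used as log2(intensity + 1) without further scaling, so a fold is on that scale. Of 28846 clusters 19572 had 1 gene symbol, 0 had several and 9274 had none (31 of them Affymetrix controls). All 19572 gene identifiers matched RefSeq (GRCm38.p6), with 0 symbols changed, and where a symbol had several clusters (55 symbols, 0 of them members) the one with the highest mean was used.

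A gene was tested where at least 3 arrays exceeded their own 40th percentile. The model (limma 3.58.1, R 4.3.3) had a mean for each of the 3 groups, used the 11 arrays together, had no replicate block, and left 8 residual and 4.48 prior degrees of freedom, and p-values were two-sided and adjusted by Benjamini-Hochberg over 12146 genes at a threshold of 0.05. Folds given as at least are measured from the higher group's mean to, per array, the greater of background and the lower group's own value. Members past the threshold in any comparison were named, and given in every array. Of the regulators and effectors up to 4 per list were named by the size of their difference, with Lrrk2, Gdi2 and Rilp in any case. In role groups without a call the member with the smallest p was named. The members, lists, background and motifs were chosen with earlier results of these data known. Precision is limited by how many arrays each group has. The labels call the arrays biological replicates, without saying whether a replicate is 1 mouse.

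Replicate numbers recur across groups in the labels. Alternatives were median scaling, quantile normalization, other pseudocounts, filters, cluster means, pairwise fits, the replicate block, array weights, a trended prior, leaving out each array and, chosen after seeing the data, leaving out control replicates 3 and 4 together.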

Additional observations from a re-analysis of the deposited data

Results flagged for a closer look

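Among the 84 groups of 4 arrays checked for the 42 tested Rab genes, 7 had an array set apart from the other 3, where chance gives about 1 in 20. Control replicate 4 was high for Rab34, a Golgi Rab, at 7.63 against 5.44 to 5.65 in the other controls, and for Rab5b at 11.08 against 10.67 to 10.70. Resolution replicate 2 was high for Rab43 at 9.17 against 8.34 to 8.47, for Rab11b at 14.46 against 14.20 to 14.24 and for Rab32 at 14.04 against 13.91 to 13.93. Resolution replicate 3 was high for Rab7b at 11.46 against 11.17 to 11.21. Resolution replicate 4 was low for Rab34 at 5.38 against 5.83 to 5.84, all below background. Groups of 3 arrays were not checked.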

How the results depend on the processing

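The count of Rab genes called was 0 in acute versus control under every alternative run. In resolution versus control it was 12, between 9 and 12 with each array left out and 8 without control replicates 3 and 4 together (5 higher and 3 lower). In resolution versus acute it was 9, and 4 to 9 with each array left out. Regulators and effectors numbered 0, 31 and 26 in the 3 comparisons, and 0 to 0, 26 to 31 and 15 to 27 with each array left out. Same-numbered arrays of different groups had deviations from their group means correlated between -0.12 and 0.09, and differently numbered arrays between -0.14 and 0.20. With so few arrays these values cannot decide whether the numbers of the labels pair the arrays. With the replicate number as a block 11 members passed against control, all among the 12, and 7 against acute, of which 6 were among the 9 and the other was Rab40c. Differences of members near 0 turned sign in acute versus control, none of them called. Rab18 (-0.01) became 0.0166 with median scaling and 0.0353 with quantile normalization, and -0.0372 to 0.0550 with each array left out, above 0 without control replicate 2 (0.0087) or acute replicate 3. Rab3d (-0.04) became 0.0262 with quantile normalization. Rab24 (-0.05) ran from -0.1437 to 0.0111 with each array left out, above 0 without control replicate 1 (0.0012) or acute replicate 1. Rab25 (0.08) ran from -0.0511 to 0.209, below 0 without acute replicate 2. In resolution versus control Rab3d (adjusted p = 0.0926), Rab8a (0.0890), Rab18 (0.0998) and Rab21 (0.0837) did not pass without control replicates 3 and 4. Of the named regulators and effectors, Rabggta (0.0789), Evi5 (0.0719) and Ehbp1 (0.1) did not pass there either. Signal over background limits what can be said of Rab27a, Rab3a and Rab9b, and for the 16 members below background on every array, 2 of them tested (Rab25 and Rab39b), no change in level can be read.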

Other observations

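The following effectors lie outside the naming rule and were chosen after their values were seen, with no test of them as a group. Eea1, the early endosome tether bound by Rab5, had a control mean of 12.18 ± 0.10 (SD, n = 4) and a resolution mean of 11.15 ± 0.18 (SD, n = 4), 2.03-fold lower (adjusted p = 6.8e-05). Vps11 and Vps39, subunits of the HOPS complex that tethers Rab7 membranes, were 1.72-fold (adjusted p = 0.000574) and 1.85-fold lower (adjusted p = 0.00658), while the other listed subunits Vps18 and Vps41 differed by -0.58 (adjusted p = 0.098) and 0.10 (adjusted p = 0.641) without passing. Plekhm2, which ties lysosomes to kinesin, was 1.80-fold lower (adjusted p = 0.000162). The Rab5 genes and Rab7 did not pass in the same comparison, with differences between -0.13 and 0.17.

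Rab4a was between 3.91 and 4.33 on all 11 arrays, below background, and Rab38 between 4.25 and 5.43.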
